A study of Drosophila melanogaster with 6 samples.

Results

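The expression of 10 genes of the trithorax group and of the chromatin remodelling ATPases was examined in leg disc myoblasts of Drosophila melanogaster. The genes were taken by symbol, with no threshold on their values, although earlier results of these data were known when the set was drawn up. They are trx, ash1 and ash2 of the histone methylation complexes, brm, mor, osa and Snr1 of the Brahma complex, the remodelling ATPases Iswi and kis, and Trl, which encodes the GAGA factor. Each of the 10 was found once among the 17490 genes of the deposited table, and all 10 were among the 7533 genes that were tested, for which 3 or more libraries had to reach an RPKM of 1. RPKM is a read count divided by exon length and by a size factor of the library. It is meant to put genes of unequal length on 1 scale, but input replicate 1 departed from the other inputs by length, as given below. No gene of the 10 passed this filter through a single group, since each of them had over 1 RPKM in all 6 libraries.

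Trithorax group proteins keep genes such as the Hox genes active through cell division, and they were found in flies as opponents of the Polycomb group, which keeps the same genes silent. They act in several ways. The proteins trx and ash1 carry a SET domain and methylate histone H3, and ash2 is a shared core subunit of the complexes that methylate lysine residues of this histone. Brm, mor, osa and Snr1 belong to a complex of the SWI/SNF type that uses ATP to move or evict nucleosomes. Iswi and kis are ATPases of other remodelling families, and Trl binds GA repeats in promoters and helps to keep them open.

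mRNA was read from 3 samples of myoblasts that were sorted by their GFP from leg discs of animals at 0 h APF (after puparium formation). The 3 input samples are of unsorted leg disc cells and thus include the myoblasts. All 6 samples had the genotype R32D05-lexA>lexAopGFP, in which a lexA driver with the R32D05 fragment switches on GFP in the myoblasts, and all of them were dissociated with collagenase and papain. The comparison asks which genes are more or less abundant in the sorted myoblasts than in the whole disc. Nothing states that the replicates came from separate dissections, so p-values measure the spread between these samples, which may be technical.

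The reads recovered on annotated genes numbered 60011335 to 77704084 in the myoblast libraries and 45603725 to 60920335 in the input libraries. The sort was checked on marker genes. All 6 myoblast markers (twi, htl, zfh1, Him, Mef2 and stumps) were called higher in myoblasts, with a summed level of 538 to 642 RPKM against 83.1 to 109 in the input, while the 6 disc epithelium markers, among them Dll and grh, were all called lower and summed to 4.80 to 7.21 RPKM in myoblasts against 269 to 319 in the input. The study names twi, htl, zfh1, Him and Mef2 as enriched in these same data, so their calls are not an independent check. Of the epithelium markers, grh, crb and Dll were under 1 RPKM in every myoblast library. They reached the level for testing only through the inputs, which favoured their calls. Hemocyte, neuron and trachea markers summed to at most 4.57 RPKM in a myoblast library. Glia markers summed to 128 to 151 RPKM in myoblasts and 70.9 to 81.8 in the input, with wrapper called higher and the defining glial gene repo called lower. The part of any marker in the results below was not tested. Of the 7533 genes, 1534 (20.4%) were called, 416 (5.52%) higher and 1118 (14.8%) lower in myoblasts, with limma on log2(RPKM + 1), a call needing more than 1.5-fold and a Benjamini-Hochberg adjusted p under 0.05. Rescaling all libraries to 1 common sum gave 180 higher and 924 lower. Quantile normalization gave 809 higher and 797 lower, and its median log2 fold change over tested genes was 0.16 in place of 0.01.

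Input replicate 1 stood apart from the other inputs, both by gene length and in markers of other cell types. Its log2 values correlated at 0.875 and 0.915 with those of input replicates 2 and 3 across tested genes, against 0.954 between the latter and 0.980 to 0.986 between myoblast libraries. Genes are not independent replicates, and these correlations only describe the libraries. For the tested genes with the longest exons (over 3617 bases, 1839 genes) the median level in input replicate 1 was 58.4% of that in the other inputs on the log2(RPKM + 1) scale, and for those with the shortest exons (up to 1289 bases, 1842 genes) it was 183%. The remodelling genes are long. Their median summed exon length was 5926 bases against 2149 for tested genes, and 8 of the 10 lie in the longest length class. Markers differed too. Hemocyte markers summed to 52.2 RPKM in input replicate 1, most of it from He, which had 38.8 RPKM there against 2.02 and 3.73 in the other inputs. The hemocyte marker eater was higher there too, at 8.63 RPKM against 2.50 and 2.11. Pxn went the other way, at 1.22 RPKM against 4.26 and 4.69, so these markers did not move together. Neuron markers summed to 28.2 RPKM there against up to 122.9, with fne at 15.4 RPKM against 71.3 and 67.3. Fat body markers, of which none reached the level for testing, were highest there, with Lsp1beta at 7.27 RPKM against 0 in both other inputs, and summed to at most 0.361 RPKM in a myoblast library. The fold change of each of the 10 genes and the median of each list are therefore also given without input replicate 1. The part of length or of these cell types in the results was not tested further, except that 1 alternative removes the trend on length.

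**Figure D1:**
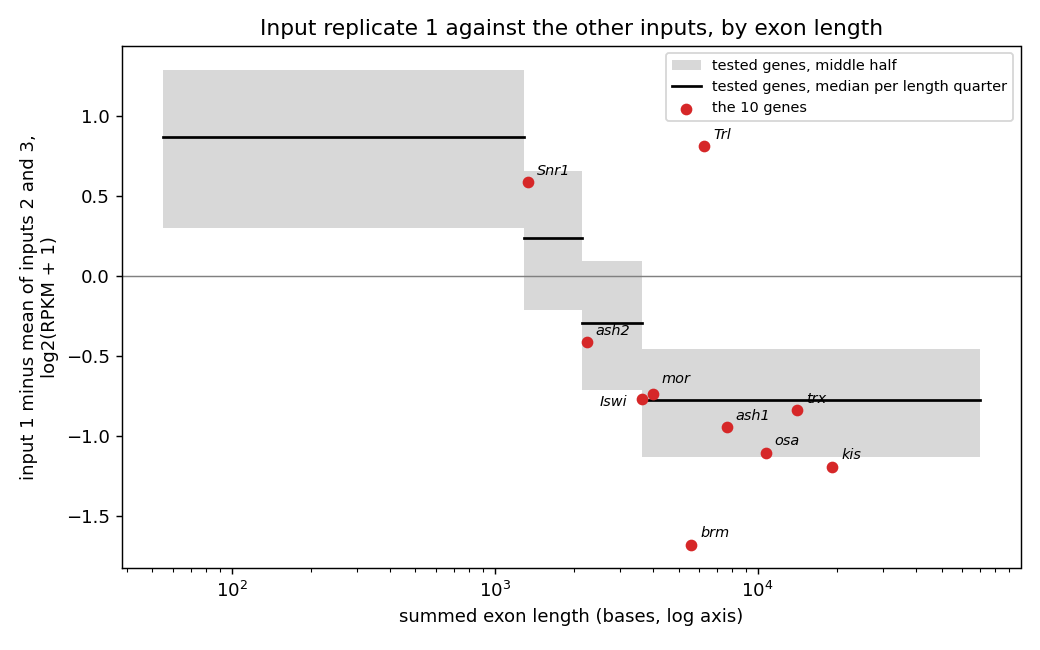
Level in input replicate 1 minus the mean level in input replicates 2 and 3, on the log2(RPKM + 1) scale, against summed exon length in bases (log axis). Black lines and grey boxes show the median and the middle 50% of the tested genes in each of 4 length classes, and red points show the 10 genes. The medians fall from 0.87 to -0.78 with length, 8 of the 10 genes lie below 0, brm lies lowest at -1.68, and Snr1 and Trl lie above 0.

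The genes of the Brahma complex were well expressed in both groups, and none of them differed by more than the spread between replicates. The gene brm (FBgn0000212, chromosome 3L of dm6, 15970082 to 15982869) encodes the ATPase of the complex. The myoblast libraries had 33.3, 41.7 and 39.9 RPKM and the input libraries 13.0, 50.8 and 37.7 RPKM, here and below in the order of replicates 1, 2 and 3. The myoblast values of brm lie inside the range of the inputs, which was the widest in relative terms among the 10 genes, with a coefficient of variation of 56.8%. For brm the log2 fold change was 0.37 (standard error 0.443, 95% interval -0.66 to 1.39, limma adjusted p = 0.650), and it turned to -0.19 without input replicate 1, where brm had only 29.4% of its mean level in the other inputs.

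The gene mor (FBgn0002783, chromosome 3R, 15968134 to 15972913) encodes the scaffold subunit that holds the complex together. It had 70.7, 89.0 and 68.8 RPKM in the myoblast replicates and 45.1, 85.0 and 67.5 RPKM in the input replicates. The groups overlap, and the mean was 76.2 ± 11.2 (SD, n = 3) against 65.9 ± 20.03 (SD, n = 3). For mor it was 0.24 (standard error 0.257, interval -0.35 to 0.84, limma adjusted p = 0.593). Without input replicate 1 it was -0.002, with an interval of -0.39 to 0.39, so that a change of 1.5-fold in either direction lay outside the interval in that fit.

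The gene osa (FBgn0261885, chromosome 3R, 17687818 to 17718350) encodes the large DNA-binding subunit that marks the BAP form of the complex. Its levels were 22.8, 31.5 and 28.0 RPKM in myoblasts and 12.6, 29.0 and 27.5 RPKM in the inputs. Apart from input replicate 1, all libraries lay between 22.8 and 31.5 RPKM. Its log2 fold change was 0.32 (standard error 0.326, interval -0.43 to 1.07, limma adjusted p = 0.581) with all libraries and -0.05 without input replicate 1 (interval -0.45 to 0.35).

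Snr1 (FBgn0011715, chromosome 3R, 5470926 to 5472754), the fly counterpart of SNF5 and a small core subunit, behaved otherwise. Its RPKM was 79.9, 81.5 and 93.5 in myoblasts and 94.0, 57.3 and 67.8 in the inputs, so that input replicate 1 held the highest value of all 6 libraries. Snr1 has the shortest exons of the 10 genes, at 1335 bases. With all libraries its log2 fold change was 0.24 (standard error 0.219, interval -0.26 to 0.75, limma adjusted p = 0.525). Without input replicate 1 the groups did not overlap, as was so for 58% of tested genes in that smaller comparison (26.9% being higher in myoblasts), and the log2 fold change was 0.44 (interval 0.11 to 0.77, limma adjusted p = 0.0475), an adjusted p under 0.05 but a fold change under 1.5, so Snr1 was not called there either.

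Iswi (FBgn0011604, chromosome 2R, 12636671 to 12640628) encodes the ATPase shared by the NURF, ACF and CHRAC remodelling complexes, which slide and space nucleosomes. It had 60.5, 70.4 and 64.3 RPKM in myoblasts and 37.6, 67.4 and 62.3 RPKM in the inputs. Input replicate 1 was the lowest library by far, and the other inputs lay within the myoblast range. On the log2 scale Iswi differed by 0.26 (standard error 0.245, interval -0.31 to 0.82, limma adjusted p = 0.545). It was 0.002 without that library, with an interval of -0.30 to 0.31.

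The gene kis (FBgn0266557, chromosome 2L, 210735 to 250823) encodes an ATPase of the CHD7 family that promotes transcription elongation in flies. It was the only one of the 10 whose groups did not overlap, where 37.8% of tested genes did not overlap, 16.4% being higher and 21.5% lower in every myoblast library. Its RPKM was 24.4, 34.3 and 27.7 in myoblasts and 9.24, 21.4 and 23.4 in the inputs. Its groups were set apart by 24.4 against 23.4 RPKM, a step smaller than the SD of either group. The ratio of its means was 1.60, and the fitted fold change of kis on the log2(RPKM + 1) scale was 0.73, or 1.66-fold (standard error 0.347, interval -0.06 to 1.53), and did not pass the test (limma adjusted p = 0.1998). The value was 0.34 without input replicate 1 (interval -0.08 to 0.76, adjusted p = 0.188). With the trend on exon length removed from each library, an alternative added after the values were seen, the adjusted p of kis was 0.0408 with a log2 fold change of 0.53 and a fold change of 1.45, just under the 1.5-fold limit, where 27.4% of all tested genes were called. Of the 10 genes kis has the longest exons, at 19229 bases.

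The histone methyltransferase genes trx and ash1 were expressed at a low level in both groups, and their mean differences were small beside the replicate spread. For trx (FBgn0003862, chromosome 3R, 14263358 to 14286903), whose product activates Hox genes and is the fly counterpart of the mammalian MLL proteins, RPKM was 5.91, 9.52 and 6.75 in myoblasts and 4.56, 9.53 and 8.39 in the inputs. For ash1 (FBgn0005386, chromosome 3L, 19590773 to 19598755) it was 4.62, 6.39 and 4.78 in myoblasts and 3.08, 7.41 and 6.31 in the inputs. In both genes replicate 2 was the highest library of each group and input replicate 1 the lowest of all 6 libraries. Their log2 fold changes were 0.01 for trx (standard error 0.324, interval -0.74 to 0.76, limma adjusted p = 0.987) and -0.02 for ash1 (standard error 0.335, interval -0.80 to 0.75, limma adjusted p = 0.975). Leaving out input replicate 1 gave -0.27 and -0.34, which did not pass the test (limma adjusted p = 0.423 and 0.285). These intervals are wide, and a change of 1.5-fold lies inside them in both directions.

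The gene ash2 (FBgn0000139, chromosome 3R, 24650125 to 24653376) was higher on average in myoblasts, but the groups overlapped. It had 29.2, 33.2 and 23.1 RPKM in myoblasts and 17.8, 21.2 and 27.3 RPKM in the inputs. Myoblast replicate 3 lay below input replicate 3. Its log2 fold change was 0.36 (standard error 0.235, interval -0.18 to 0.90, limma adjusted p = 0.363) and 0.22 without input replicate 1. It stayed above 0 in all 19 alternatives, but several of these, such as the filters and the replicate block, cannot alter the estimate.

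Trl (FBgn0013263, chromosome 3L, 14747929 to 14761049) had the lowest listed level of the 10 genes, and this level is uncertain. Its RPKM was 3.57, 3.43 and 3.08 in myoblasts and 4.17, 1.42 and 2.59 in the inputs, with the highest and the lowest value of the 6 libraries both among the inputs. Of the 6254 exon bases of Trl, 4441 (71.0%) are shared with CG42507 on the same strand, whose exons lie wholly within those of Trl and which is listed at 0 in all 6 libraries. A further 424 bases are shared with Tsen34, listed in the table as CG33260. Of 290 protein-coding genes that lie wholly within exons of a gene on the same strand, 281 (96.9%) were listed at 0 in every library, and so were 69 of 74 (93.2%) that lie within exons on the opposite strand, against 25.4% of the other protein-coding genes. How reads on overlapping genes were counted is not stated in the sources used here, and the RPKM of Trl gave whole reads in all 6 libraries with its full exon length as divisor. If all its counted reads came from its 1389 unshared bases, its level per unshared base would be 15.1 ± 1.13 RPKM (SD, n = 3) for the myoblast libraries against 12.3 ± 6.23 (SD, n = 3) for the inputs. The fold change of Trl on the deposited values was 0.29 in log2 (standard error 0.338, interval -0.49 to 1.07, limma adjusted p = 0.630), and per unshared base, an alternative added after the values were seen, it was 0.39 (limma adjusted p = 0.522). Leaving out input replicate 1 gave 0.56 (interval -0.02 to 1.15, limma adjusted p = 0.124), and the groups did not overlap, again beside 58% of tested genes.

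**Figure D2:**
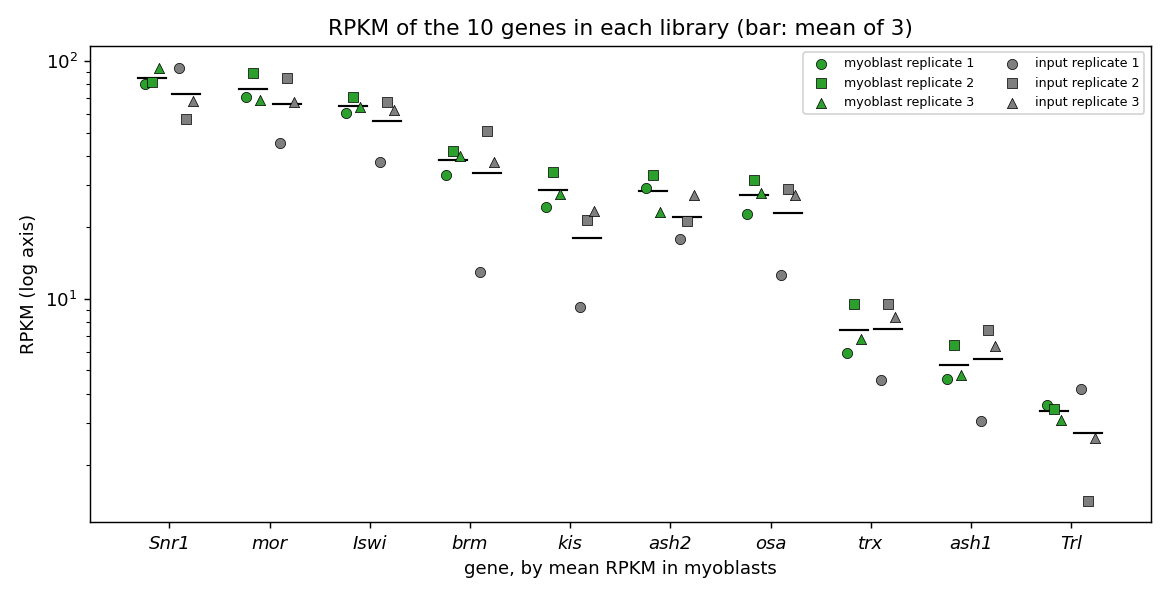
RPKM (log axis) of the 10 genes in each of the 3 myoblast libraries (green) and 3 input libraries (grey), with marker shape giving the replicate and bars giving the mean of 3. Input replicate 1 (grey circle) is the lowest of all 6 libraries for 8 genes and the highest for Snr1 and Trl, and only kis has all its myoblast libraries above all its inputs.

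Ordered by mean RPKM in myoblasts, the genes were Snr1 (85.0), mor (76.2), Iswi (65.1), brm (38.3), kis (28.8), ash2 (28.5), osa (27.5), trx (7.39), ash1 (5.26) and Trl (3.36). In these libraries the ranges of neighbours were separate between Iswi and brm, between osa and trx, and between ash1 and Trl, and overlapped elsewhere. The core and ATPase genes at the top thus stood clear of the SET domain genes. The last place of Trl and its step from ash1 hold for the listed values only. If all counted reads came from unshared bases, the myoblast mean of Trl would be 15.1 RPKM. That is above trx (7.71) and ash1 (5.26) on the same measure. In the input the order was the same except that kis, ash2 and osa came in the reverse order, and the ranges of all neighbours overlapped. The input means include input replicate 1, whose levels relative to the other inputs fell with exon length. By mean level among all tested genes, Snr1, mor and Iswi stood above 86.7% to 89.8% of genes in myoblasts, and trx and ash1 above 31.0% and 24.5%. Between 536 and 55631 reads lay behind a single value, so counting error was small beside the spread between replicates.

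Taken over the 10 genes, 0 were called, where 20.4% of all tested genes were (limma with Benjamini-Hochberg adjustment). At an unadjusted p under 0.05 there were also 0, against 30.7% of tested genes. The log2 fold change was above 0 for 9 genes and below 0 for ash1, with a median of 0.28 against 0.01 for all tested genes. In the fit without input replicate 1 the median was 0.0002, with 5 genes above 0 (ash2, Snr1, Iswi, kis and Trl) and 5 below (trx, ash1, brm, mor and osa). That fit called 31.1% of tested genes and again none of the 10, with 1 (Snr1) at an unadjusted p under 0.05. With the trend on exon length removed and input replicate 1 kept, the median was 0.27, with 8 genes above 0 and 2 below. All 10 intervals held 0 and all 10 reached past 1.5-fold higher, while those of trx, ash1 and brm also reached past 1.5-fold lower. The test thus does not show equal levels. The sum over the 10 genes was 335 to 401 RPKM in myoblasts and 241 to 350 RPKM in the input. As in any bulk sample, fewer cells that express a gene and less RNA per cell cannot be told apart.

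**Figure D3:**
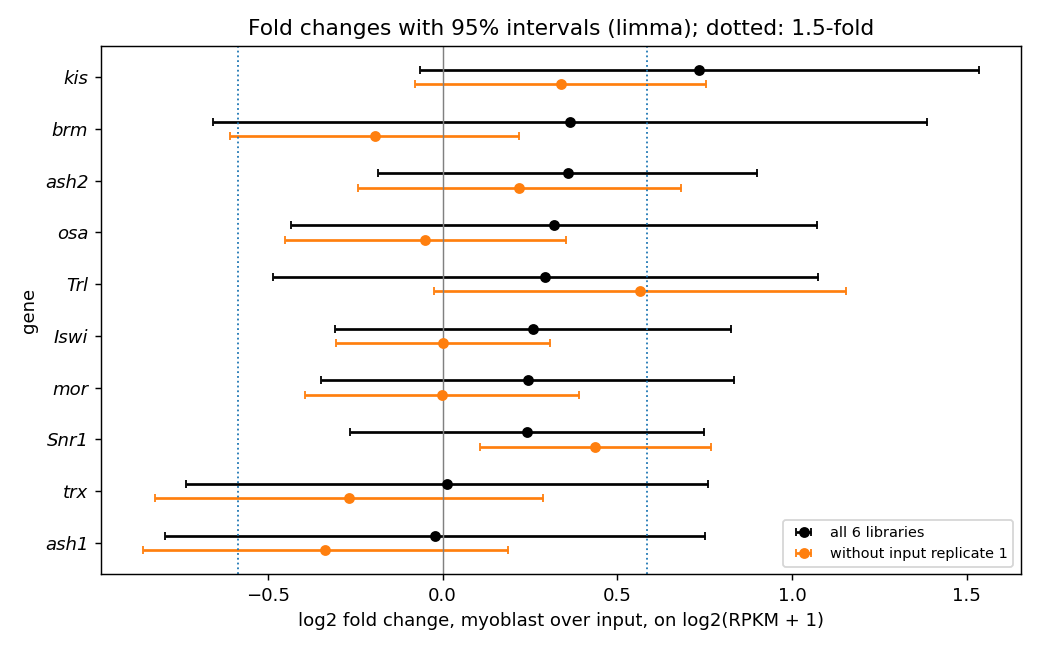
Log2 fold change of myoblast over input on the log2(RPKM + 1) scale for each of the 10 genes, with 95% intervals from limma, for all 6 libraries (black) and without input replicate 1 (orange). Dotted lines mark 1.5-fold. All black intervals hold 0, and without input replicate 1 the estimates of brm, mor, osa, trx and ash1 lie below 0.

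The replicate spread was itself uneven between the groups. In all 10 genes the coefficient of variation was larger among the inputs than among the myoblasts, with a median of 37.1% against 15.3%. The medians over all tested genes were 33.0% and 14.6%. Among the myoblasts, replicate 2 held the highest value for 8 of the 10 genes, the exceptions being Snr1 and Trl, whose highest values were in replicates 3 and 1.

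Genes of the complexes were also compared by ratios of mRNA level within a library, which carry no scaling between libraries. Such ratios do not measure the protein make-up of a complex. The length trend of input replicate 1 need not cancel between genes of unequal length, such as brm (5597 exon bases) and Snr1 (1335), and its part was not tested. The Brahma ATPase and its partners occur in a BAP form with osa and in a PBAP form with polybromo and Bap170. The ratio of osa to polybromo RPKM was 1.006, 1.21 and 1.02 in myoblasts and 0.975, 1.29 and 1.41 in the inputs, and that of osa to Bap170 was 1.39, 1.76 and 2.17 against 1.65, 1.44 and 1.79. Genes of both forms were thus expressed in both groups, with overlapping ratios. The ratio of brm to Snr1 ran from 0.417 to 0.512 in myoblasts and was 0.138, 0.887 and 0.556 in the inputs, the largest spread of any ratio. The ratio of trx to ash1 ran from 1.28 to 1.49 in myoblasts and from 1.29 to 1.48 in the inputs, the smallest spread of the 6 ratios in the inputs but not in the myoblasts, where brm to Iswi varied less. Of 6 ratios compared (with brm to mor and brm to Iswi), none separated the groups, and exact two-sided permutation tests gave p from 0.400 to 1, all 1 after adjustment over the 6, where 0.1 is the smallest that 3 libraries against 3 allow. Without input replicate 1, osa to polybromo and brm to Snr1 were lower in every myoblast library than in both remaining inputs, by 0.33 and 0.64 on the log2 scale. The other ratios overlapped there. No test was run on the ratios without that library, where 58% of tested genes, taken singly, did not overlap either.

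The other subunits of these complexes were measured on lists of genes. Of 8 partner subunits of the Brahma complex, 0 were called, with a median log2 fold change of 0.34 and a range of -0.26 to 0.77. The median was 0.19 without input replicate 1. The most positive were Act5C at 0.77, e(y)3 at 0.72, CG7154 at 0.52 and polybromo at 0.48, none of which passed (limma adjusted p from 0.102 to 0.234). Act5C is an actin gene with near-identical copies, and e(y)3 encodes a subunit of the PBAP form. How reads that match several actin copies were counted is not stated in the sources used here. Of 7 partners of Iswi, 0 were called, with a median of 0.33 (0.24 without input replicate 1), and tou, Acf, Chrac-14 and Caf1-55 had the largest values, at 0.57, 0.56, 0.51 and 0.33. Of 9 genes of other ATPase remodellers, 0 were called either, with dom at 0.90, Chd3 at 0.84, pont at 0.56 and rept at 0.41. The median of this list was 0.34 and dropped to 0.05 without input replicate 1, where dom was at 0.55 and Chd3 at 0.58, while pont was at 0.81 and was called. Dom is the ATPase of the complex that exchanges histone H2A variants, and its RPKM of 33.3, 51.1 and 42.1 in myoblasts lay above the 13.1, 28.7 and 27.4 of the inputs, without passing the test (limma adjusted p = 0.0953). With the trend on exon length removed, dom was called (limma adjusted p = 0.00398), and so were Act5C, e(y)3 and Chd3. In the same fit trr, dre4, tara and nej of the lists below were called as well.

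Among 13 other subunits of the histone methylation complexes, 1 was called, Mnn1, which encodes menin, a partner of trx. Its RPKM was 3.14, 3.41 and 3.41 in myoblasts and 6.77, 12.8 and 10.8 in the inputs, so that every input lay above every myoblast library. On the log2 scale Mnn1 differed by -1.33 (standard error 0.288, limma adjusted p = 0.0133), and -1.56 without input replicate 1. It lost its call with no filter on low values, after rescaling to a common sum, and without each of myoblast replicates 1, 2 and 3 and input replicate 3. The other 12 genes of this list did not pass, and the median of the list was 0.14, or 0.04 without input replicate 1. Of 5 matched genes of GAGA factor partners, 1 was called, Ssrp, a subunit of the histone chaperone FACT, with 61.2, 70.3 and 72.3 RPKM in myoblasts and 43.8, 48.6 and 35.2 in the inputs. Its log2 fold change was 0.67 (standard error 0.191, limma adjusted p = 0.0417), close to the threshold, and it too lost its call without each of myoblast replicates 1, 2 and 3 and input replicate 3, and with no filter, a mean RPKM over 5, a common sum, no trend or array weights. The other 4 genes of this list were named after their values were seen. The second FACT subunit, dre4, had 0.67 as well and did not pass (limma adjusted p = 0.209), and psq, lolal and Clamp lay between -0.27 and 0.18. The list's median turned from 0.18 to -0.03 without input replicate 1.

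Of 10 further trithorax group genes, 0 were called, with a median of 0.30 (0.13 without input replicate 1). The largest differences were those of nej, the fly CBP acetyltransferase, at 0.75 and of tara at -0.70, followed by Set2 at 0.40 and fs(1)h at 0.40. Leaving out that library gave 0.47 for nej and -0.89 for tara, which was then called. The opposing Polycomb group was not called in any of its 20 genes with all libraries, with a median of 0.26 that turned to -0.05 without input replicate 1. Its largest values were esc at 1.48, Jarid2 at 0.62, pho at -0.56 and Sfmbt at 0.54. For esc, a subunit of the complex that writes the silencing mark, RPKM was 15.7, 19.8 and 24.4 in myoblasts and 1.44, 12.1 and 11.5 in the inputs, and the groups did not overlap. Without input replicate 1 the log2 fold change of esc was smaller, at 0.68, but passed the test (limma adjusted p = 0.0391).

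The Hox genes, the classical targets of trithorax and Polycomb proteins, differed strongly between the same libraries. Of 8 Hox genes, 3 reached the level for testing and all 3 were called. Ubx reached it only through the inputs, where it is high, so that its call was favoured by the filter and the count of 3 is no measure of Hox genes at large. Ubx had 0.461, 0.0720 and 0.141 RPKM in myoblasts and 15.4, 27.7 and 15.3 RPKM in the inputs, a log2 fold change of -4.02 (limma adjusted p = 8.93e-05). Scr had 107, 121 and 125 RPKM against 41.8, 54.9 and 44.1 (log2 fold change 1.32, limma adjusted p = 0.00150), and Antp had 30.3, 33.9 and 31.4 RPKM against 10.7, 11.8 and 12.9 (log2 fold change 1.36, limma adjusted p = 0.00151). These 3 calls held in all 19 alternatives, and without input replicate 1 the log2 fold changes were -4.15 for Ubx, 1.24 for Scr and 1.30 for Antp. Of the 7945 exon bases of Antp, 3978 (50.1%) are shared with CG46458. The listed level of Antp is therefore uncertain, and the part of this overlap was not tested. In all, 5 of 75 tested genes on the 8 lists were called, against 20.4% of all tested genes, and without input replicate 1 it was 11 of 75, Act5C, esc, tara, pont, Chrac-14 and Su(z)2 being added, against 31.1%.

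**Figure D4:**
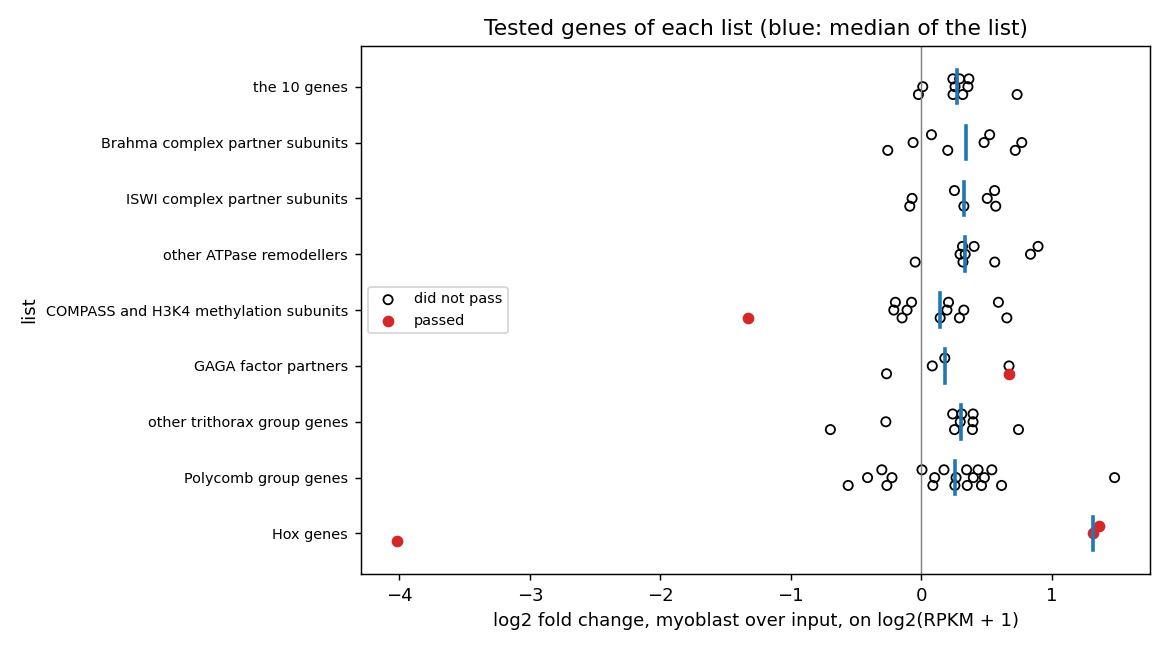
Log2 fold change of myoblast over input on the log2(RPKM + 1) scale for each tested gene of the 10 and of the 8 lists, with open circles for genes that did not pass and red points for those that did. Blue bars give the median of each list, which lies between 0.14 and 0.34 for every group but the Hox genes. The 5 red points are Mnn1, Ssrp, Ubx, Scr and Antp.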

How the data were processed

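Poly(A) RNA was captured with oligo(dT) and libraries were made with the NEBNext Ultra kit. Per the labels and the study's methods, reads were filtered with Cutadapt, aligned with HISAT2 (2.1.0) to dm6, counted with HTSeq (0.11.2), and the authors deposited RPKM values for 17490 genes. All value columns were used. The deposited RPKM carried equal median-of-ratios factors in all 6 libraries (1.02), so a scaling between libraries was already in them. Gene positions and exon lengths are from Ensembl release 115 (dm6 coordinates, 17216 genes matched), which is not stated to be the release of the authors. Multiplied by exon length, RPKM gave whole reads within 0.05 for 97.4% to 98.6% of genes under 100 reads and for all 60 values of the 10 genes, which gave the reads. Reads are not independent molecules, so they bound counting error only. The strand setting of the counting is not given in the sources used here.

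Genes that reached an RPKM of 1 in 3 or more libraries were compared on log2(RPKM + 1) with limma 3.58.1 in R 4.3.3 (empirical Bayes trend, Benjamini-Hochberg adjustment over 7533 genes, threshold 0.05 and 1.5-fold). Adding 1 understates the change of low genes. The fit was tested on simulated data. Ratios were tested with scipy 1.17.1, tables were handled with pandas 2.3.3 and numpy 2.4.6 in Python 3.11.15, and plots were drawn with matplotlib 3.10.9. No replicates were identical (chi-square per degree of freedom at least 133). The genes and lists were chosen with earlier results of these data known. Named are the 10 genes, and in each list the genes called or, where none or more than 4 were called, the 4 with the largest absolute log2 fold change, and polybromo and Bap170. Dsp1 was not matched by symbol. Alternatives were pseudocounts of 0.1 and 0.5, no filter, a mean RPKM over 5, 3 scalings, a replicate block, no trend, array weights (which did not fully converge), no adjustment, and leaving out each library.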

Additional observations from a re-analysis of the deposited data

How the results depend on the processing

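None of the 10 genes was called in any of the 19 alternatives, in which their adjusted p was at least 0.0408 (with Trl not tested at a mean RPKM over 5). The log2 fold changes of ash2, Snr1, Iswi, kis and Trl stayed above 0 throughout. Those of brm, mor, osa, trx and ash1 changed sign in 1 to 5 alternatives, without having been called. The filters, the replicate block, no empirical Bayes trend and no adjustment of p cannot alter a fold change, so not every alternative tests the sign. Leaving out 1 library moved kis between 0.34 and 0.96, brm between -0.19 and 0.75 and Trl between 0.02 and 0.56. Under quantile normalization Trl was at 1.03 (limma adjusted p = 0.155), against 0.29 in the main fit. Over all genes the number called was 894 with no filter on low values, 920 at a mean RPKM over 5, and 903 (without myoblast replicate 3) to 2342 (without input replicate 1) with a library left out. On the 8 lists, 5 calls became 3 after rescaling to a common sum, 8 after quantile normalization, 12 with no adjustment of p, 13 with the trend on exon length removed (added after the values were seen), and 3 to 11 with a library left out. The number of ratios that separated the groups was 0 to 2 with a library left out. The causes were not tested. Libraries with the same number were not taken as pairs in the main fit. Deviations of same-numbered libraries correlated at 0.34, 0.26 and 0.01, against -0.33 to 0.16 for libraries of unlike number. For replicates 1 and 2 the same-numbered library was the closest match, and for replicate 3 it was not. Whether they are pairs was not tested. With the replicate block, 0 of the 10 genes, 7 list genes and 1668 genes in all were called, the added list genes being dom (adjusted p = 0.0206) and esc (0.0299), kis had an adjusted p of 0.0793, and no ratio had the same sign in all 3 pairs. With 3 libraries a group, the intervals of all 10 genes reach past 1.5-fold higher and those of trx, ash1 and brm past 1.5-fold lower. The part of depth in this was not tested.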
